A study of Homo sapiens with 12 samples.

Results

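Subtelomeres are the stretches of DNA just inside the telomeric repeats, and they are described here by the methylation of their CpGs. A CpG was counted as subtelomeric if it lay on chromosomes 1 to 22 within 2 Mb of the outermost measured CpG of its chromosome arm. The short arms of chromosomes 13, 14, 15, 21 and 22 were left out. This gave 39 arm ends with 422645 of the 3689712 CpGs measured for 5-methylcytosine (5mC), or 11.5%, and 411532 of the 3534314 CpGs measured for 5-hydroxymethylcytosine (5hmC). The cells were SV-HUC-1, one line of human urothelial epithelium immortalised with the SV40 virus. They were exposed for 3 days to DCBQ (2,6-dichloro-1,4-benzoquinone), a quinone byproduct of water disinfection, or to a blank solution, called control here. Each condition had 3 RRBS and 3 oxRRBS libraries, which sequence CpG-rich DNA after bisulfite alone or after oxidation and bisulfite, and the tables give 3 numbered values of each mark per condition. Nothing in the labels says whether the 3 samples of a condition were cultured separately. The p-values thus rest on the variation among these samples alone, which could be technical.

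Subtelomeres carry segmental duplications, remnants of gene families copied between chromosome ends, and many gene-rich GC-rich stretches. Their DNA is normally densely methylated in somatic cells, a state set by the methyltransferase DNMT3B. Inherited mutations of its gene leave subtelomeres hypomethylated. Methylation there restrains transcription of TERRA, the telomeric repeat RNA whose promoters lie next to the telomere, and of DUX4, the germline transcription factor encoded in the D4Z4 repeats of 4q. 5hmC is made from 5mC by the TET dioxygenases and is usually scarce in cultured cells.

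The files give a level per CpG with no read depth, so no interval from read counts can be given, and 3 samples per condition limit the precision. All positions are hg38. At their gene windows, 6 of 7 measured epithelial markers had 5mC below 20% in both conditions. The exception was GATA3, at 56.8% in DCBQ and 52.2% in control cells. The 2 measured leukocyte markers, CD3D and SPI1, were at 77.4% and 52.5% in DCBQ and at 84.1% and 49.6% in control cells.

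The 2 Mb ends were richer in measured CpGs than the rest of the chromosomes. They held 5418.5 CpGs measured for 5mC per Mb, against 1093.3 per Mb in the rest of chromosomes 1 to 22. A subtelomeric CpG had a median of 26 measured CpGs in its own 1 kb tile, against 16 for a CpG of the rest. Arm ends differed widely, with 843 CpGs at 3p and 26851 at 19p, and a median of 9252. Because CpG-dense DNA is usually less methylated, each subtelomeric CpG was set beside CpGs of the same chromosome, outside the 2 Mb ends, in tiles with the same CpG count. Such a match existed for 97.2% of the 5mC CpGs, and that set is called the matched rest.

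DCBQ cells had slightly less 5mC at their chromosome ends than control cells. Mean subtelomeric 5mC was 59.72%, 59.92% and 59.76% in DCBQ samples 1, 2 and 3. It was 60.47%, 60.21% and 60.21% in control samples 1, 2 and 3. The groups did not overlap. The means were 59.80% ± 0.10 in DCBQ and 60.30% ± 0.15 in control cells (SD, n = 3 each), a difference of -0.496 percentage points (SE 0.104). By a two-sided exact permutation test p was 0.1, the lowest value a design of 3 against 3 allows, so no such comparison here can pass 0.05. The share of subtelomeric CpGs with at least 80% 5mC was 47.5% in DCBQ and 48.0% in control cells, and the share below 20% was 26.6% in DCBQ and 26.3% in control cells. Both shares had the groups apart.

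Chromosome ends had more 5mC than DNA of equal CpG count elsewhere, in every sample. Subtelomeric CpGs exceeded the matched rest by 11.73, 11.76 and 11.73 points in the DCBQ samples and by 11.91, 11.89 and 11.89 points in the control samples. The mean excess over the 6 samples was 11.8 ± 0.085 points (SD). It was 5.74 points when each 1 kb tile, rather than each CpG, counted once. The excess was larger at p ends, 12.4 points in DCBQ and 12.6 in control cells, than at q ends, 11.2 points in DCBQ and 11.4 in control cells.

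The excess was smaller in DCBQ than in control cells. The difference between the conditions at the ends minus that in the matched rest was -0.154 points (SE 0.010), with the groups apart and an exact permutation p of 0.1. Relative to its own control level, the difference was -0.829% at the matched ends and -0.717% in the matched rest, where 5mC was 49.2% in DCBQ and 49.5% in control cells. The difference beyond the rest was -0.093 points with 1 Mb ends and -0.083 points against the unmatched rest. Without matching, the rest of chromosomes 1 to 22 differed by -0.405 points.

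**Figure D1:**
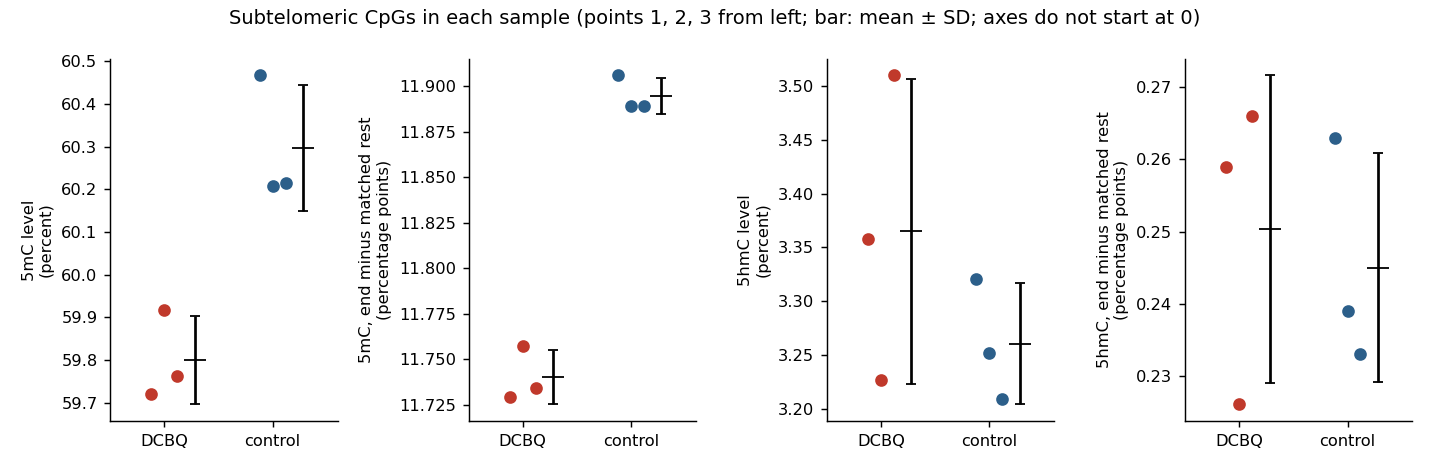
Mean subtelomeric 5mC and 5hmC (percent) and their difference from the matched rest (percentage points) in each sample, DCBQ left of control, with bars for the mean ± SD of 3 samples. For 5mC the DCBQ and control points do not overlap in either panel, while for 5hmC they do in both; the axes do not start at 0.

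The excess of 5mC at chromosome ends depended on CpG count. In tiles with 1 to 4 measured CpGs, subtelomeric CpGs were 1.61 points above the rest in DCBQ and 1.72 points above it in control cells. The gap was widest in tiles with 31 to 45 CpGs, where subtelomeric 5mC was 62.2% in DCBQ and 62.6% in control cells, against 39.5% and 39.7% in the rest. In the densest tiles, with 71 to 200 CpGs, which elsewhere are mostly unmethylated, the ends read 27.7% in DCBQ and 27.8% in control cells and the rest 13.7% in both.

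The difference between conditions was nearer 0 in each denser class of tiles. It was -0.787 points (SE 0.179) in tiles with 1 to 4 CpGs and -0.106 points (SE 0.070) in those with 71 to 200, where the groups overlapped. Beyond the rest, it was between -0.249 and -0.027 points in the 7 classes, and the groups were apart in all but the densest.

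**Figure D2:**
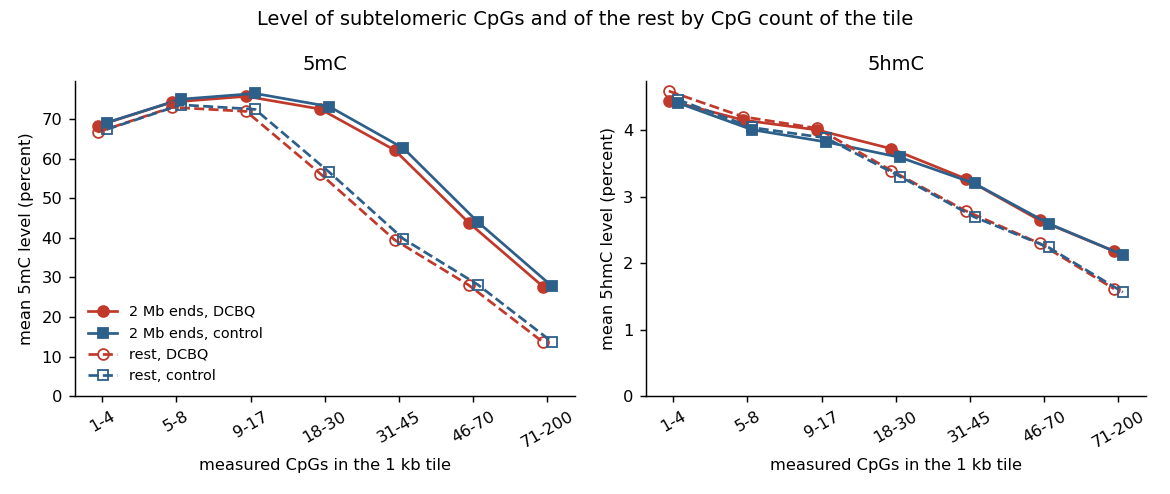
Mean 5mC and 5hmC (percent) against the number of measured CpGs in the 1 kb tile, for the 2 Mb ends and the rest of chromosomes 1 to 22, in DCBQ and control cells. The lines for the ends and the rest part above 17 CpGs per tile, reaching a gap of 22.7 points of 5mC in DCBQ and 22.9 in control cells at 31 to 45 CpGs, while those of the conditions nearly coincide.

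Of the 7 distance classes, the outermost 50 kb had the widest excess of 5mC. Its 7742 CpGs were 22.96 points above the matched rest in DCBQ and 22.88 points in control cells. Mean levels there were 59.2% in DCBQ and 59.3% in control cells. Some of the copied gene families described below, such as DUX4 copies at 10q, lie in this class. Their near-identical sequences can exchange reads. Between 50 kb and 1.5 Mb from the outermost CpG the excess lay between 12.02 and 13.91 points in control cells, and from 1.5 to 2 Mb it was 8.53 points in DCBQ and 8.71 in control cells.

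The outermost CpGs were not where the conditions differed most. Within 50 kb the difference was -0.158 points (SE 0.181; exact permutation p = 0.4), with DCBQ samples at 59.07%, 59.31% and 59.19% and control samples at 59.51%, 59.52% and 59.01%. It was -0.203 points (SE 0.061) from 100 to 250 kb and -0.558 points (SE 0.113) from 1.5 to 2 Mb, both with the groups apart. The classes also differed in CpG count, with a median of 48 measured CpGs per tile within 50 kb and 22 from 1.5 to 2 Mb. Beyond the matched rest the difference was 0.078 points (SE 0.163) within 50 kb and 0.114 points (SE 0.082) from 100 to 250 kb. Both had overlapping groups. From 1 to 1.5 Mb it was -0.210 points (SE 0.017). Farther in, from 2 to 5 Mb, 5mC was 58.6% in DCBQ and 59.1% in control cells, and from 5 to 10 Mb it was 55.0% in DCBQ and 55.5% in control cells.

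**Figure D3:**
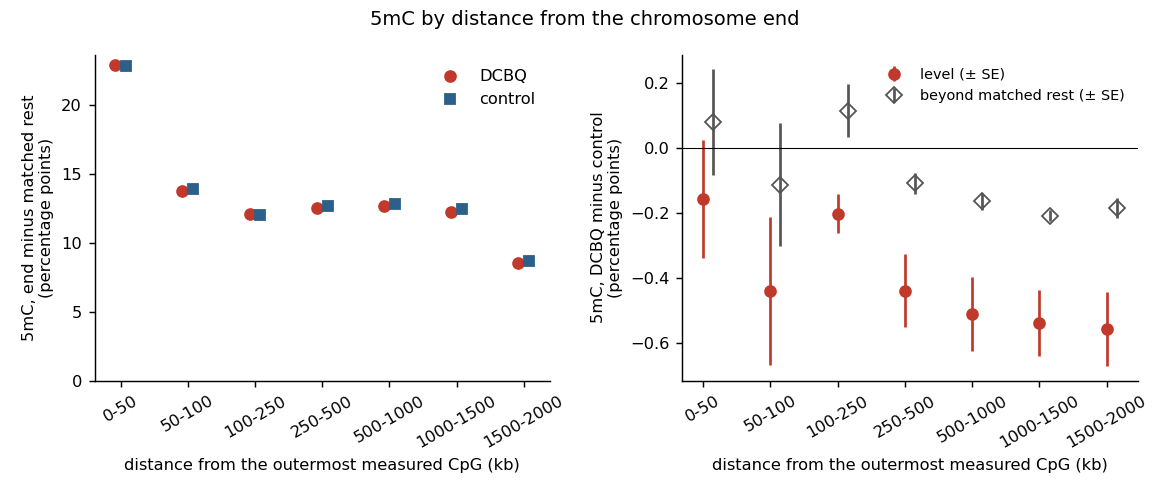
Left, 5mC excess over the matched rest (percentage points) by distance from the outermost measured CpG, in DCBQ and control cells; right, DCBQ minus control ± SE for the level and for its difference beyond the matched rest. The excess is 22.96 points in DCBQ and 22.88 in control cells within 50 kb, where the difference between conditions is -0.158 points, against -0.558 points at 1.5 to 2 Mb.

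Arm by arm, 38 of 39 ends, or 97.4%, had lower mean 5mC in DCBQ than in control cells, against 94.5% of all 2 Mb windows, and 35 had the groups apart, all lower. Over all 1467 windows of 2 Mb tiled across chromosomes 1 to 22 and X, 45.9% were lower in DCBQ with the groups apart and 0.273% were higher. That background depends on how many CpGs a window holds. Among windows with at least 5000 CpGs, 28 of 28 arm ends were lower with the groups apart, against 102 of 118, or 86.4%, of the windows away from the ends. The sets are still not equal in CpG count, with a median of 12782 CpGs at those ends and 6695.5 in those inner windows. The median difference was -0.512 points at those 28 ends and -0.425 points in those 118 inner windows. In limma across all windows, 11 windows, or 0.75%, passed a Benjamini-Hochberg adjusted p of 0.05. None of the 39 ends did. Their smallest adjusted p was 0.0683, and 28 had an unadjusted p under 0.05, against 550 of the 1467 windows. The ends come from the same samples and are not separate tests.

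The lowest differences were at 12q, 8p, 11q and 22q. At 12q, which ends in a cluster of zinc finger genes, DCBQ samples read 60.70%, 61.07% and 60.63% and control samples 61.80%, 61.41% and 61.46%. The groups were apart, by a difference of -0.760 points (SE 0.183; adjusted p = 0.0737 in limma). Its 250 kb bins, shown because the arm had the lowest difference, were all 8 lower in DCBQ, 7 with the groups apart, which restates that choice.

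At 8p the means were 50.6% in DCBQ and 51.4% in control cells, a difference of -0.749 points (SE 0.140; adjusted p = 0.0683 in limma) with the groups apart. The 22q end, which carries SHANK3, read 55.5% in DCBQ and 56.2% in control cells, and its difference of -0.667 points (SE 0.155) also had the groups apart. At 11q the means were 51.8% in DCBQ and 52.5% in control cells, but control sample 3, at 51.92%, lay below DCBQ samples 2 and 3, so the groups overlapped.

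At the other end of the order stood 9p, the one arm with a higher mean in DCBQ. Its samples read 48.99%, 49.47% and 48.61% in DCBQ and 49.11%, 48.72% and 48.57% in control cells. The groups overlapped, and the difference was 0.224 points (SE 0.296). The matched rest of chromosome 9 was lower in DCBQ, so beyond it the 9p end differed by 0.614 points, with the groups apart. The end held 2385 CpGs, few among the 39. In 250 kb bins, differences ran from -0.780 points to 0.752 points, and the groups overlapped in all 8. The bin from 750 kb to 1 Mb, with DMRT1, a gene of testis development, and DMRT3, read 48.2% in DCBQ and 47.6% in control cells. The next 3 arms in the order were 6p at -0.179 points (SE 0.103), 3p at -0.206 points (SE 0.190) and 4q at -0.244 points (SE 0.222), of which 6p had the groups apart.

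**Figure D4:**
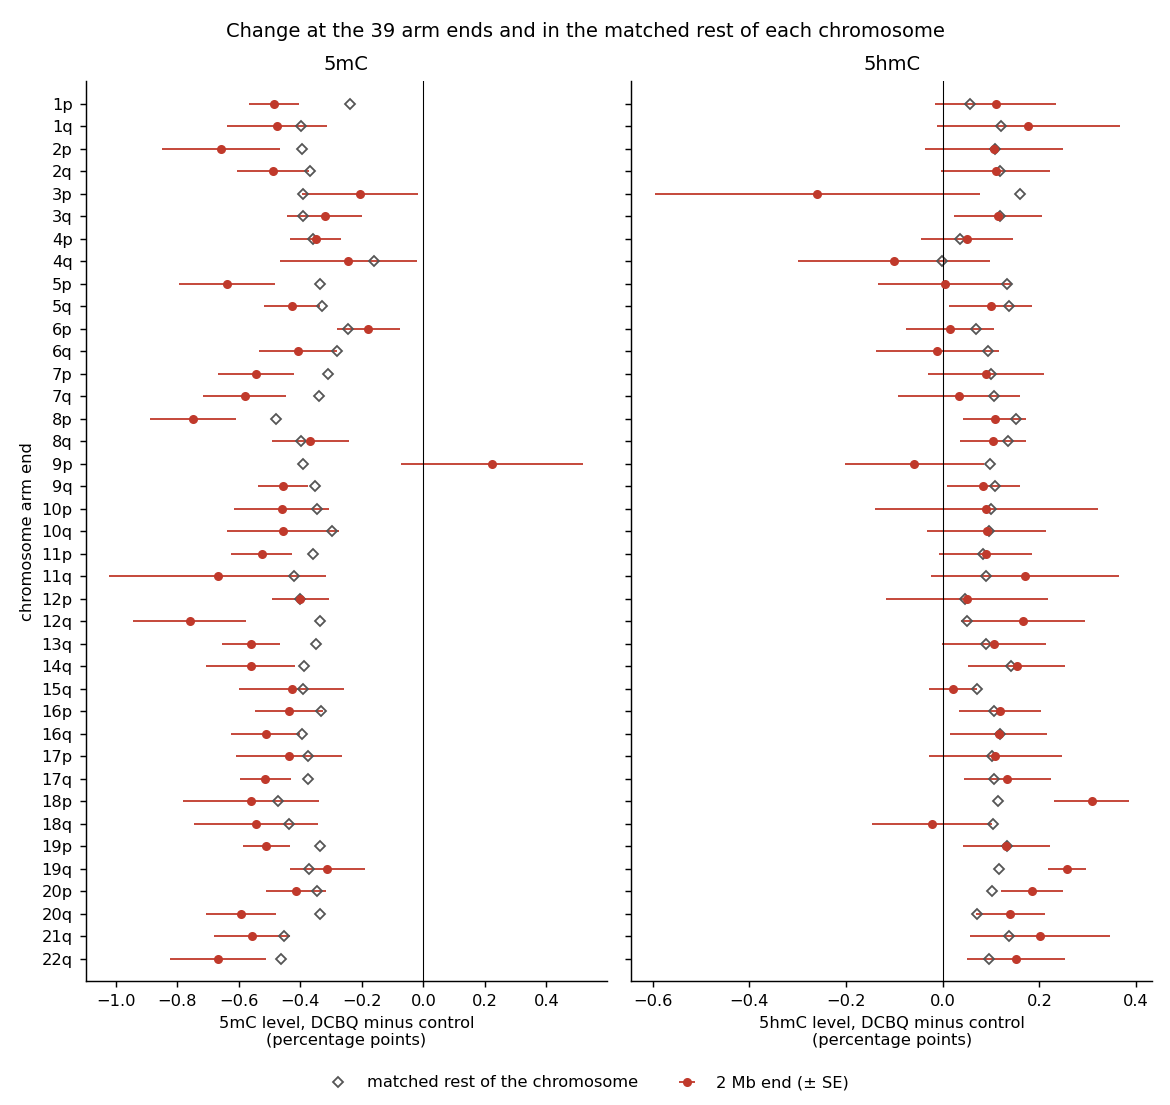
DCBQ minus control in percentage points for 5mC (left) and 5hmC (right) at each of the 39 arm ends (filled, ± SE, n = 3 per condition) and in the matched rest of the same chromosome (open). For 5mC, 38 ends lie below 0 and 9p above it, and for 5hmC, 34 lie above 0.

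**Figure D5:**
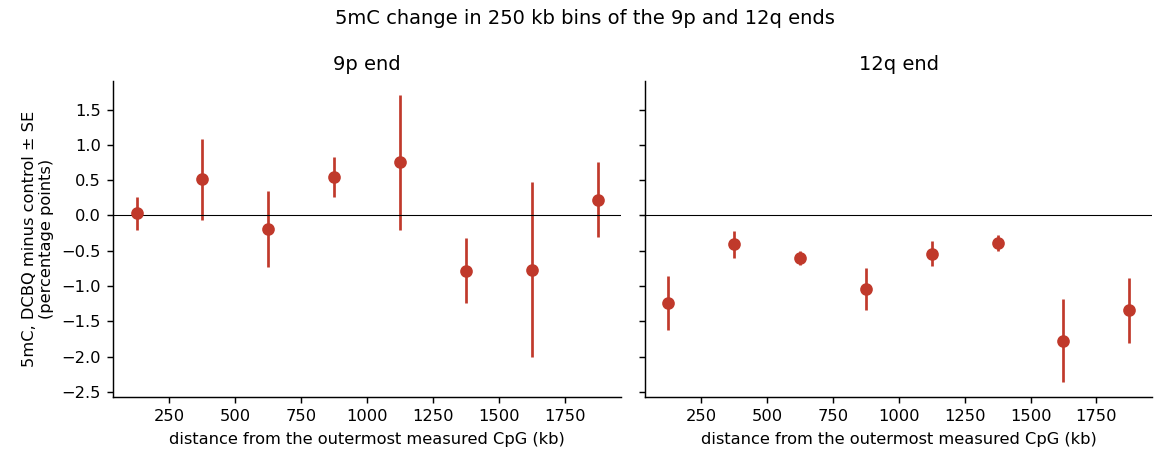
5mC, DCBQ minus control ± SE in percentage points, in 250 kb bins of the 9p and 12q ends by distance from the outermost measured CpG (n = 3 per condition). All 8 bins of 12q lie below 0, and those of 9p lie on both sides of it.

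Beyond the matched rest, 33 of 39 ends had a difference below 0, and 20 had the groups apart, 19 of them below 0. The exceptions above 0 were 9p, 3p, 3q, 6p, 19q and 8q. This difference was not computed for windows away from the ends. The counts thus have no background share and do not show a trait particular to the ends. At 12q the difference beyond the matched rest was -0.441 points and at 5p, the end with TERT, it was -0.303 points.

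Ends differed from one another far more than conditions did. The 3 lowest ends were 20p at 40.2% in DCBQ and 40.6% in control cells, 9p at 49.0% and 48.8%, and 18p at 49.0% and 49.5%. Highest were 21q at 68.4% in DCBQ and 68.9% in control cells, 6q at 68.0% and 68.4%, and 13q at 67.8% and 68.3%. In all 6 samples 34 ends were above their matched rest and 4 were below it. The excess was widest at 4q, with 28.8 points in DCBQ and 28.9 in control cells. Of the 4658 CpGs of that end, 1317 lie in 10 copies of DUX4, whose near-identical sequences can exchange reads. The 20p end, with the beta-defensin cluster, was below its matched rest by 6.17 points in DCBQ and 6.09 in control cells, and 19q, rich in KRAB zinc finger genes, by 5.58 and 5.65 points.

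The copied gene families near the telomere covered a wide range of levels. DUX4 and its copies form tandem repeats at 4q and 10q whose near-identical sequences can exchange reads, so each value is uncertain for a single copy. Over the 10 copies at 4q, mean 5mC was 51.20%, 50.29% and 51.04% in DCBQ and 50.19%, 51.33% and 50.26% in control cells. These groups overlapped (difference 0.249 points, SE 0.464; exact permutation p = 0.8). Over the 14 copies at 10q it was 46.9% ± 0.44 in DCBQ and 46.8% ± 0.89 in control cells (SD, n = 3 each), also overlapping. The window at the start of the gene listed as DUX4 read 51.1%, 51.1% and 53.3% in DCBQ and 53.4%, 53.5% and 55.0% in control cells, with the groups apart but an adjusted p of 0.808 in limma.

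The 7 copies of WASH, an activator of actin nucleation, averaged 40.0% ± 0.33 in DCBQ and 40.4% ± 0.11 in control cells (SD, n = 3 each). Their members ranged from 17.3% to 83.6% in DCBQ and from 17.7% to 83.8% in control cells. The 5 measured DDX11L pseudogenes, which lie among the outermost annotated sequences, were at 88.9% in DCBQ and 89.9% in control cells with overlapping groups. The 9 measured CICP pseudogenes were at 82.7% in DCBQ and 83.4% in control cells with the groups apart (difference -0.684 points, SE 0.265; exact permutation p = 0.1). These families, too, have near-identical copies.

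For 5hmC, subtelomeric means were low and the conditions overlapped. DCBQ samples read 3.36%, 3.23% and 3.51% and control samples 3.32%, 3.25% and 3.21%. DCBQ sample 3 was the highest and control sample 3 the lowest, and DCBQ sample 2 lay within the control range. The difference was 0.104 points (SE 0.088; exact permutation p = 0.3). It was 0.032 points without DCBQ sample 3 and 0.173 points without DCBQ sample 2. Subtelomeric CpGs were above their matched rest by 0.259, 0.226 and 0.266 points in DCBQ and by 0.263, 0.239 and 0.233 points in control cells. The difference beyond the matched rest was 0.005 points (SE 0.015; exact permutation p = 0.9), and its sign turned under several settings. Against the unmatched rest, 5hmC at the ends differed by -0.039 points on average over the 6 samples.

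Like 5mC, 5hmC exceeded the rest mainly in dense tiles. With 71 to 200 CpGs it was 2.18% in DCBQ and 2.13% in control cells at the ends, against 1.62% and 1.57% in the rest. With 5 to 8 CpGs the ends were 0.050 points below the rest in DCBQ and 0.033 points below it in control cells.

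Higher 5hmC in DCBQ was found at 34 of 39 ends, or 87.2%, against 74.6% of all 1466 windows. The groups were apart at 3 ends, or 7.69%, all higher, while over all windows 9.41% were higher with the groups apart and 0.819% were lower. With at least 5000 CpGs, 1 of 26 ends and 7 of 111 inner windows were lower, and 3.85% of these ends and 9.91% of these inner windows were higher with the groups apart. By limma, 2 windows, or 0.136%, passed an adjusted p of 0.05, and none of the ends did: their smallest adjusted p was 0.892 and none had an unadjusted p under 0.05. The 3 ends were 18p, at 4.16%, 4.36% and 4.33% in DCBQ and 3.92%, 4.06% and 3.94% in control cells, then 19q and 20p. At 19q 5hmC was 3.25% in DCBQ and 2.99% in control cells (difference 0.257 points, SE 0.039), and at 20p 2.85% and 2.66% (difference 0.185 points, SE 0.065). Between these in size, the 21q end had a difference of 0.202 points (SE 0.145) with overlapping groups. On the lower side were 3p at -0.259 points (SE 0.337), 4q at -0.101 points (SE 0.198), 9p at -0.059 points (SE 0.144) and 18q at -0.022 points (SE 0.124), all overlapping. The 5 lower ends became 2 without DCBQ sample 2, 3 without control sample 1, 8 without control sample 3 and 11 without DCBQ sample 3.

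The level of 5hmC also varied by arm. It was highest at 8p, with 4.71% in DCBQ and 4.60% in control cells, at 4q, with 4.49% and 4.59%, and at 18q, with 4.41% and 4.43%. Lowest were 5q, with 2.72% in DCBQ and 2.62% in control cells, 20p, with 2.85% and 2.66%, and 8q, with 2.79% and 2.69%. The 4q end, which had the widest excess of 5mC, also had the widest excess of 5hmC over its matched rest. This was 2.08 points in DCBQ and 2.18 in control cells. Of its 4431 CpGs measured for 5hmC, 1291 lie in the DUX4 copies.

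The 2 marks tended to differ in opposite directions. They did so at 35 of 39 arm ends, or 89.7%, against 77.0% of all 2 Mb windows. Among subtelomeric 1 kb tiles with at least 5 CpGs, the sign of the difference was opposite for 5mC and 5hmC in 14152 of 20245, or 69.9%, against 69.5% of all tiles. The sources used here do not give how each mark was derived from the RRBS and oxRRBS libraries. Both marks of a sample may share reads, and opposite signs are then not independent observations.

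No 1 kb tile passed the threshold. Among 20698 subtelomeric tiles measured for 5mC, none had an adjusted p under 0.05 in limma over 210465 tiles (0.0% of all), and 1104 had an unadjusted p under 0.05, or 5.33% against 6.2% of all tiles. Lower tiles with the groups apart made up 10.1% of the subtelomeric tiles and 8.11% of all tiles, and higher ones 2.62% and 3.38%. The subtelomeric tiles also held more CpGs, with a median of 12 against 9 over all tiles. These shares were not matched for CpG count. For 5hmC none of 20245 subtelomeric tiles passed (0.0% of 201935), 728 had an unadjusted p under 0.05 (3.6%, against 4.82% of all tiles), and lower and higher tiles with the groups apart made up 4.08% and 5.92%, against 4.39% and 5.54% of all tiles.

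The 5mC tile with the smallest p lay in HSBP1L1, a heat shock factor binding protein-like gene at 18q, on chromosome 18 from 79966001 to 79967000. Its 10 CpGs averaged 81.13%, 83.50% and 80.61% in DCBQ and 100%, 97.51% and 95.56% in control cells (difference -15.9 points, SE 1.45; adjusted p = 0.714 in limma). Its 5hmC was 11.8% in DCBQ and 1.39% in control cells. A tile in MICALL2, an adaptor of junctional membrane traffic, lay on chromosome 7 from 1455001 to 1456000 and was at 4.69% in DCBQ and 13.7% in control cells. In TSPAN4, a tetraspanin gene on chromosome 11 (861001 to 862000), the tile was at 83.0% in DCBQ and 90.1% in control cells. All 3 had the groups apart, as the rule for naming tiles required.

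Of the tiles with higher 5mC, the 4 with the smallest p lay in C20orf96 at 20p, with 92.8% in DCBQ and 86.5% in control cells, 2059 bp from the RNA gene LOC105371024 at 15q, with 10.8% and 7.58%, in LETM1 at 4p, with 84.4% and 78.1%, and in TSPEAR at 21q, with 78.5% and 70.5%. In the LETM1 and TSPEAR tiles 5hmC was lower in DCBQ, at 3.25% and 3.00%, than in control cells, at 7.82% and 9.97%.

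The 5hmC tiles named by the rule were small, with 5 to 7 CpGs each. On chromosome 18 from 511001 to 512000, in LINC01925, 5hmC was 8.60%, 10.6% and 10.1% in DCBQ and 0%, 1.28% and 1.21% in control cells (adjusted p = 0.973 in limma). Its 5mC was 52.6% in DCBQ and 66.6% in control cells. In HDAC10, a polyamine deacetylase gene at 22q, the tile from 50247001 to 50248000 read 5.71%, 5.36% and 9.24% 5hmC in DCBQ and was listed at 0 in all 3 control samples, with 5mC at 91.6% in DCBQ and 100% in control cells. The other higher tiles lay 1807 bp from EPPK1 at 8q and in MRPL20-DT at 1p. Lower ones lay in ATP11A, a phospholipid flippase gene, and RASA3, a RAS GTPase-activating protein gene, both at 13q, and 23 bp from AURKC at 19q and 14153 bp from PLEC at 8q. In ATP11A 5hmC was 0.432% in DCBQ and 5.04% in control cells.

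Gene windows ran from 1500 bp before to 500 bp after a gene's start, or, for protein-coding genes with no strand in the reference table, over the end of the gene with more measured CpGs. Such a window may be the far end of the gene. There were 1673 subtelomeric genes with at least 5 CpGs for 5mC, 1183 of them protein-coding and 333 without strand. They were more methylated than gene windows in general: 54.1% of them were below 20% in control cells, against 67.1% of all 19914, and 17.3% were at 80% or more, against 10.1%. None of the subtelomeric gene windows passed an adjusted p of 0.05 in limma (0.0% of all), and 105 had an unadjusted p under 0.05, or 6.28% against 6.7% of all. Of those 105, 77 were lower in DCBQ, against 920 of 1335 over all gene windows. Lower windows with the groups apart were 10.3% of the subtelomeric windows and 8.11% of all, and higher ones 2.69% and 3.66%. The subtelomeric windows also held more CpGs, with a median of 64 against 44 over all gene windows. These shares, too, were not matched for CpG count. For 5hmC none of 1668 passed (0.0% of 19751), 51 had an unadjusted p under 0.05 (3.06%, against 4.95% of all), and lower and higher ones with the groups apart were 4.26% and 6.12%, against 4.28% and 5.70% of all.

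At SUMO3 and LOC124902526, both among the 5 lower gene windows with the smallest p for 5mC, the difference lay at the edge of an unmethylated stretch. To show what that stretch looks like, the 250 bases before each start are printed from RefSeq (GRCh38.p14), 5′ to 3′ on the gene's strand, with the CpGs measured here in capitals. SUMO3 encodes a ubiquitin-like modifier that is conjugated to proteins under stress, and its bases lie on the minus strand at chr21:44818063-44818312. LOC124902526 is an uncharacterised RNA gene, with bases on the minus strand at chr10:132396557-132396806, whose window overlaps that of PWWP2B, a gene for a PWWP-domain chromatin protein.
SUMO3: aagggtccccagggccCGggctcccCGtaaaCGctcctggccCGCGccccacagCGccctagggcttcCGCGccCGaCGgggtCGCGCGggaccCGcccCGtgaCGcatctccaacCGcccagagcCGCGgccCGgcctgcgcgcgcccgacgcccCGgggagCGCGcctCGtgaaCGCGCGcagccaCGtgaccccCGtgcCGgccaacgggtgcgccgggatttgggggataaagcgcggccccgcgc
LOC124902526: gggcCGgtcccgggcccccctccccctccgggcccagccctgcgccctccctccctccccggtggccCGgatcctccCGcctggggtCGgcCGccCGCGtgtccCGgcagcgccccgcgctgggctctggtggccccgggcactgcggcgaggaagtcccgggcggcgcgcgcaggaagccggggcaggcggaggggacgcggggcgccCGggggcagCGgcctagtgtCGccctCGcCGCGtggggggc

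In these 250 bases of SUMO3, 30 of 42 CpGs were measured and averaged 1.28% 5mC in DCBQ and 1.71% in control cells. The next 250 bases upstream, with 31 CpGs, read 12.7%, 9.51% and 16.0% in DCBQ and 37.2%, 28.3% and 28.7% in control cells. That is a difference of -18.7 points (SE 3.45) with the groups apart. From 500 to 750 bp upstream 5mC was 72.2% in DCBQ and 75.4% in control cells, and from 750 bp to 1 kb it was 91.1% and 90.4%. Over the whole window of 127 CpGs, SUMO3 was at 31.4% in DCBQ and 36.6% in control cells (difference -5.21 points, SE 0.89; adjusted p = 0.465 in limma). The bins were chosen after the window was seen.

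In the 250 bases of LOC124902526, 14 of 34 CpGs were measured and averaged 2.07% in DCBQ and 2.54% in control cells. Within the gene, from 250 to 500 bp after its start, 23 CpGs read 52.8%, 53.5% and 54.5% in DCBQ and 65.4%, 60.4% and 64.3% in control cells. The groups were apart there and in the first 250 bp, where 5mC was 15.8% in DCBQ and 21.4% in control cells. The overlapping PWWP2B window was at 18.04% in DCBQ and 20.94% in control cells (adjusted p = 0.445 in limma).

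RNA genes completed the lower 5 by the same rule. LOC124905349 at 2q, whose measured CpGs lie in the sialidase gene NEU4, was at 80.66%, 80.75% and 78.45% in DCBQ and 87.66%, 88.30% and 89.54% in control cells. Its 11 CpGs are those of a tile on chromosome 2 that was also among the 4 lower tiles with the smallest p. In the same CpGs 5hmC was 6.09%, 5.68% and 9.15% in DCBQ and 3.25%, 2.85% and 2.07% in control cells, so this window was named for both marks, in opposite directions. LOC124902320 at 9q was at 41.2% in DCBQ and 45.6% in control cells.

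Of the higher windows, PAK2, a kinase activated by RAC and CDC42, stayed nearly unmethylated, with 1.71% in DCBQ and 0.860% in control cells. The other higher windows belonged to RNA genes. LOC124903565 at 15q was at 72.2% in DCBQ and 65.8% in control cells, LINC03048 at 17q at 65.6% and 61.4%, LOC124901806 at 7p at 90.0% and 86.8%, and NALT1 at 9q at 13.9% and 12.3%. The NALT1 window overlaps that of its neighbour NOTCH1.

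Windows named for 5hmC had 6 to 47 CpGs. Lower in DCBQ were IQSEC3-AS1 at 12p, with 2.32% in DCBQ and 7.25% in control cells, ZIK1, a KRAB zinc finger gene at 19q, with 2.62% and 6.59%, ZNF750, a regulator of epidermal differentiation at 17q, with 1.78% and 4.75%, TMEM210 at 9q, with 1.13% and 3.30%, and PIEZO1-AS1 at 16q, with 1.53% and 3.27%. In ZIK1, 5mC was 62.2% in DCBQ and 56.3% in control cells. Higher in DCBQ, besides LOC124905349, were LOC128966728, which shares its window with 3 neighbouring genes at 19p, with 5.65% in DCBQ and 1.61% in control cells, LINC02897 at 1q, with 3.87% and 1.21%, LINC02684 at 11q, with 3.52% and 1.59%, and LMF2, a lipase maturation factor gene at 22q, with 1.81% and 0.679%. The adjusted p was 0.963 in limma for all 10. The gene windows named for one mark, 20 with LOC124905349 counted under both, had the opposite sign in the other, as did 13 of the 16 named tiles. Over all gene windows 62.7% had opposite signs, and over the subtelomeric ones 63.7%. Those shares are over windows not selected by p, so they are not a like background. Among all gene windows with the groups apart in both marks, 389 of 427 had opposite signs.

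Zinc finger genes of the chromosome ends were mostly unmethylated. All 25 listed members, from 4p, 8q, 12q and 19q, were measured, and 19 were below 20% in control cells. So were 67.1% of all gene windows and 54.1% of the subtelomeric ones. For 5mC, 15 were lower and 10 higher in DCBQ, with a median difference of -0.139 points against -0.178 points over all subtelomeric windows, and none passed the test (smallest adjusted p = 0.594 in limma). In ZNF140 the 3 DCBQ samples read 1.89%, 2.18% and 1.99% and the 3 control samples 3.21%, 3.20% and 2.53%. ZNF732 was at 18.9% in DCBQ and 16.6% in control cells, also with the groups apart. So were ZNF84, at 2.88% in DCBQ and 3.27% in control cells, and ZNF517, at 10.9% and 11.2%. These were the 4 members with the 5mC groups apart, ZNF732 being the only higher one. Over all gene windows 8.11% were lower and 3.66% higher with the groups apart. ZNF132, a 19q gene, was at 57.9% in DCBQ and 54.2% in control cells with overlapping groups. For 5hmC, 11 were lower and 14 higher, and 1, ZNF732, was lower with the groups apart, against 4.28% of all gene windows.

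Among telomere maintenance genes, 2 of 5 were subtelomeric and measured. TERT, the catalytic subunit of telomerase at 5p, was at 41.4%, 40.1% and 39.9% in DCBQ and 41.3%, 41.0% and 41.0% in control cells, with the groups overlapping. RTEL1, a helicase that resolves telomeric loops, at 20q, was at 39.6% in DCBQ and 40.1% in control cells (adjusted p = 0.948 in limma).

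Of the urothelial cancer genes, 5 of 7 were measured here, TERT included, 2 lower and 3 higher in DCBQ, and none passed the test. FGFR3, a receptor kinase gene at 4p often mutated in urothelial tumours, was at 12.64%, 12.11% and 12.83% in DCBQ and 11.88%, 11.99% and 11.94% in control cells, with the groups apart (adjusted p = 0.853 in limma). NOTCH1 at 9q was at 3.77% in DCBQ and 3.17% in control cells, also apart. Over all gene windows 3.66% were higher with the groups apart. HRAS at 11p was at 28.6% in DCBQ and 28.1% in control cells and STK11 at 19p at 3.44% and 3.48%, both overlapping.

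The alpha globin cluster at 16p, silent outside red cells, was of low to middling level. HBM, its largest window with 160 CpGs, was at 49.2% in DCBQ and 46.4% in control cells, HBA1 at 25.3% and 24.6%, HBA2 at 18.1% and 16.1%, HBQ1 at 28.6% and 27.9% and HBZ at 21.8% and 23.4%. All 5 had overlapping groups. The HBA1 and HBA2 genes are near-identical, so reads may be split between them.

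Of 9 genes that deletions of chromosome ends can remove, 7 were measured, 4 lower and 3 higher in DCBQ. SHANK3, a synaptic scaffold gene at 22q, was the most methylated, at 84.4%, 85.9% and 84.5% in DCBQ and 86.6%, 86.8% and 86.1% in control cells, with the groups apart (adjusted p = 0.833 in limma). EHMT1, KDM5A, VIPR2 and ADARB2 were each below 4% in both conditions. DIP2C was at 13.7% in DCBQ and 13.8% in control cells, and PTPRN2 at 33.3% and 33.0%. Only SHANK3 had the 5mC groups apart, and over all gene windows 8.11% were lower with the groups apart.

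Of 13 imprinted and metabolic genes, 10 were measured, 5 lower and 5 higher, and 1 was lower with the groups apart, against 8.11% of all gene windows. This was TRIM28, the corepressor that KRAB zinc finger proteins recruit, at 19q. Its samples read 24.92%, 23.93% and 22.99% in DCBQ and 26.23%, 26.64% and 26.57% in control cells (difference -2.54 points, SE 0.684; adjusted p = 0.613 in limma). Its window is the CpG-dense end of the gene. In the same CpGs 5hmC was 4.30% in DCBQ and 2.31% in control cells, apart as well. H19, the maternally expressed RNA of 11p, had 5 CpGs, at 76.5% ± 12.1 in DCBQ and 72.6% ± 8.57 in control cells (SD, n = 3 each). AXIN1, a WNT scaffold gene at 16p, was at 2.81% in DCBQ and 2.67% in control cells for 5mC, overlapping, and at 1.27% and 0.747% for 5hmC, where the groups were apart.

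Among 14 members of duplicated end families, 5 were measured. Besides DUX4, only WASHC1 at 9p had the 5mC groups apart, at 1.09% in DCBQ and 1.77% in control cells. Both were lower in DCBQ, and over all gene windows 8.11% were lower with the groups apart. TUBB8 at 10p, a tubulin gene of the oocyte, was at 72.2% in DCBQ and 71.1% in control cells. No member of these 7 lists passed an adjusted p of 0.05 for either mark.

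Chromosome ends hold several well-known miRNA genes, small RNAs whose bases 2 to 8, the seed, pair with target mRNAs. Their mature forms are given from RefSeq (GRCh38.p14), with the seed in capitals, to show which of the genes described next encode miRNAs of one seed. The miR-200 family restrains ZEB transcription factors and so keeps cells epithelial, miR-132 and miR-212 come from one transcript known from neurons, miR-126 lies in the endothelial gene EGFL7, miR-210 is induced by hypoxia, and miR-149 lies in GPC1.
hsa-miR-200b-3p: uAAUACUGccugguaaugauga
hsa-miR-429: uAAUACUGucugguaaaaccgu
hsa-miR-132-3p: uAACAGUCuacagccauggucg
hsa-miR-212-3p: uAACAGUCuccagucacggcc
hsa-miR-126-3p: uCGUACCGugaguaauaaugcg
hsa-miR-210-3p: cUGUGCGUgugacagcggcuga
hsa-miR-149-5p: uCUGGCUCcgugucuucacuccc

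Of 95 subtelomeric miRNA genes, 74 had at least 5 CpGs within 1000 bp of the hairpin. MIR941-1, MIR941-3, MIR941-4 and MIR941-5 at 20q share the same 60 CpGs for 5mC, so the windows are not all separate. In control cells 13 of the 74 were below 20% 5mC, or 17.6% against 26.9% of all miRNA windows. At 80% or more were 46, or 62.2% against 44.1% of all. None of the 74 passed an adjusted p of 0.05 in limma for 5mC (0.0% of 605 miRNA windows) or for 5hmC (0.0% of 593). For each mark, 3 had an unadjusted p under 0.05, or 4.05%. Over all miRNA windows this share was 8.26% for 5mC and 4.89% for 5hmC. For 5mC, 51 were lower, or 68.9% against 63.8% of all. Of the 74, 8 were lower with the groups apart, or 10.8% against 10.6% of all. Only 1 was higher with the groups apart, or 1.35% against 3.47%. For 5hmC, 4 were lower and 3 higher with the groups apart, or 5.41% and 4.05%, against 4.72% and 5.73% of all.

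MIR200B and MIR429, which share the seed AAUACUG and lie in a cluster at 1p with overlapping windows, were both heavily methylated. MIR429 read 82.21%, 82.36% and 81.67% in DCBQ and 84.89%, 83.69% and 83.64% in control cells, with the groups apart (difference -1.996 points, SE 0.752; adjusted p = 0.560 in limma). Its 5hmC was 4.67%, 5.02% and 4.02% in DCBQ and 2.64%, 2.82% and 2.95% in control cells, apart as well (adjusted p = 0.829 in limma). MIR200B was at 85.1% in DCBQ and 85.8% in control cells with overlapping groups.

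MIR126 at 9q read 91.0% in DCBQ and 92.7% in control cells for 5mC and 3.78% and 2.33% for 5hmC, both with the groups apart. In contrast MIR132 and MIR212, neighbours at 17p that share the seed AACAGUC and most of their windows, were at 3.53% and 11.22% in DCBQ and at 3.72% and 11.01% in control cells. MIR210 at 11p was at 2.32% in DCBQ and 2.71% in control cells. MIR149 at 2q was at 8.54% in DCBQ and 9.91% in control cells. All 4 had overlapping groups. MIR675, the product of H19 at 11p, was at 81.1% in DCBQ and 80.5% in control cells for 5mC and at 3.77% and 7.10% for 5hmC, where the groups were apart (adjusted p = 0.829 in limma).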

How the data were processed

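DNA of SV-HUC-1 cells was isolated with a QIAamp kit, oxidised with TrueMethyl reagents for oxRRBS and made into Ovation RRBS libraries, per the labels' protocols. Reads were handled with cutadapt, Trim Galore and BSMAP 2.90 on hg38, per the submitters' processing notes, which do not give each tool's role. The authors deposited 1 table per mark with a fraction (0 to 1) per CpG in 6 columns. Their names point to merged strands and at least 5 reads, but no read numbers are listed, so depth is unknown. The fractions are printed as percent.

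CpGs were averaged per sample, arm end, 2 Mb window (at least 50 CpGs), 1 kb tile and gene window (at least 5 CpGs each). The matched rest weights CpGs of the same chromosome, beyond 2 Mb of its ends, to the ends' CpG counts per tile. For means, an exact permutation test (two-sided) was run. For windows, tiles and genes, limma 3.58.1 (R 4.3.3) was fitted to all units of the table (Benjamini-Hochberg, 0.05), after tests on simulated data. "Apart" means that the 3 DCBQ and 3 control values do not overlap. Named were, per mark, the 4 arms, 4 tiles and 5 gene windows with the most extreme difference (arms) or smallest p among units apart, per direction, the 3 highest and 3 lowest arms by control level, and the list members. Duplicated families by gene span, miRNA windows (1000 bp around a hairpin) and bins were added after values were seen. Members and lists were chosen with earlier results of these data known. RefSeq tables gave genes and sequences. Python 3.11.15, numpy 2.4.6, pandas 2.3.3 and matplotlib 3.10.9 were used. Alternatives were other end widths, CpGs in both tables, tiles counted once, an unmatched rest, arcsine values, 1 Mb windows, a minimum of 10 CpGs, a replicate block, and each sample left out.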

Additional observations from a re-analysis of the deposited data

How the results depend on the processing

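The lower subtelomeric 5mC mean in DCBQ kept its direction, with the groups apart, under every alternative run, from -0.704 points with each 1 kb tile counted once to -0.411 points without control sample 1. Leaving out single samples gave -0.555 to -0.411 points, and -0.163 to -0.149 points for the difference beyond the matched rest. With the groups apart in all 6 samples, these runs could not turn the direction or make the groups overlap. The excess of subtelomeric 5mC over the matched rest was 11.933 points with 1 Mb ends, 9.558 with 5 Mb ends, 12.021 over CpGs in both tables, 5.736 with each tile counted once and 6.238 without matching, and 11.800 to 11.835 without single samples. The same 5hmC excess was 0.172, 0.221, 0.041 and -0.039 points with 1 Mb ends, 5 Mb ends, tiles counted once and no matching, and 0.244 to 0.252 points without single samples. The 5hmC difference beyond the rest, 0.005 points, turned to -0.017, -0.004, -0.013 and -0.005 points under those settings in that order. Without single samples it ran from -0.003 points (DCBQ sample 3) to 0.018 points (DCBQ sample 2), with -0.001 points without control sample 3. The cause of these moves was not tested. Leaving out single samples gave 0.032 to 0.173 points for the 5hmC mean.

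No arm end, tile or gene window at the ends passed the adjusted threshold under any alternative run in limma, for either mark. Over all 2 Mb windows the 11 called for 5mC became 0 to 14 without single samples and 0 with the replicate block, and the 2 called for 5hmC became 0 to 5 and 4. All 309 values of the 36 named tiles and gene windows under these alternatives kept their direction, but this was fixed in advance. These units were named only if their groups were apart, and none of these alternatives can then turn the sign. Same-numbered DCBQ and control samples did not deviate together (correlations over 2 Mb windows of -0.081 to 0.006 for 5mC and -0.244 to -0.130 for 5hmC), so the numbers were not taken as pairs. With the replicate block the differences were the same by construction, with exact p of 0.25 for the 5mC mean of -0.496 points, 0.25 for its difference beyond the rest, 0.5 for the 5hmC mean and 1.0 for its difference beyond the rest. For pairs, 0.25 is the smallest p possible. Unknown read depth limits all single-CpG and small-window values.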
